A study of Mus musculus with 6 samples.

Results

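The S100 genes encode small calcium-binding proteins, and 8 of them were followed here in a mouse leukaemia line treated with the vitamin B6 analog 4'-O-methylpyridoxine (OMP). S100a8, S100a9, S100a11, S100a6 and S100a13 had more mRNA in every OMP library than in any Vehicle library, while the values of S100a1, S100a4 and S100a10 overlapped between the groups. The 8 genes were taken by symbol from a table of 53465 genes, and the family was selected on its difference in RPKM between OMP and Vehicle, so the members' differences are described here without p-values. The table held 17 protein-coding S100 genes in all, and the 9 that were not chosen had 0 to 2 reads over all libraries. The cells were Nras(G12D)/MLL-AF9 cells, a mouse line named for a mutant Nras and the MLL-AF9 fusion, labelled as leukemic cells from blood. All groups carried both lesions and grew in medium with stem cell factor and the interleukins IL-3 and IL-6. The OMP group received 100 µM OMP for 6 days and the Vehicle group received PBS for 6 days, with 3 libraries of poly(A)-selected RNA each. The sources used here do not say whether the line is 1 clone, or whether replicates were separate cultures. The p-values therefore rest on a spread among libraries that could be technical.

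S100 proteins are built around a pair of EF-hand motifs, helix-loop-helix structures that bind calcium, and most work as dimers that expose a binding surface for partner proteins when calcium enters the cell. S100a8 and S100a9 form the heterodimer calprotectin, one of the most abundant cytosolic proteins of neutrophils, which binds zinc and manganese, and which outside the cell can act on Toll-like receptor 4. The other members have more general roles in the cytoskeleton, at membranes and in secretion. Most S100 genes lie side by side in one cluster, so that neighbours with different tissue patterns share a short stretch of chromosome.

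The bases upstream of 4 members are shown because they lie before the genes with the largest difference (S100a8 and S100a9), a gene from the second run of S100 genes that was also higher (S100a11), and a gene inside the first run whose groups overlapped (S100a4). The sequences come from RefSeq on GRCm38.p6, run 5′ to 3′ along the gene, and end at the base before the RefSeq start site. Gene positions given below come from GENCODE M21 and can start earlier. The S100a8 gene there starts at 90668978, so the end of its window, with TATAAA and the match beside it, lies inside that gene. The last bases of the S100a11 window also lie inside its gene, which starts at 93520488. Capitals mark every match, on either strand, to TTGCNNAA (the core bound by C/EBP factors), GAGGAA (an ETS core as bound by PU.1), TATAAA (the TATA box) or TGANTCA (an AP-1 site).
S100a8, chr3:90668821-90669070, plus strand: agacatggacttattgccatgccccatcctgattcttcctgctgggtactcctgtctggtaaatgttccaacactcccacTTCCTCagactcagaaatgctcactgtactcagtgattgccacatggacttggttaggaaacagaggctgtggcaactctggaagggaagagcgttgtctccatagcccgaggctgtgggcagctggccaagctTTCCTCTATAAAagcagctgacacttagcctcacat
S100a9, chr3:90695722-90695971, minus strand: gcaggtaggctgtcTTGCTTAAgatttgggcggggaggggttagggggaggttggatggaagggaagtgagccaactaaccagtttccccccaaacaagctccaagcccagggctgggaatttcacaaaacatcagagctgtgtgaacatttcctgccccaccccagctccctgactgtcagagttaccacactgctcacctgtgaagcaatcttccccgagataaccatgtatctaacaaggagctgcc
S100a11, chr3:93520246-93520495, plus strand: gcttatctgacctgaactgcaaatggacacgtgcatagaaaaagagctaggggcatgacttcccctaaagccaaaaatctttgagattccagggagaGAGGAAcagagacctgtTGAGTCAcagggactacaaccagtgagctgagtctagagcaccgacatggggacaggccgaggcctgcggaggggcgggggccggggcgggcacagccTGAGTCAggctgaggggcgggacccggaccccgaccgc
S100a4, chr3:90603520-90603769, plus strand: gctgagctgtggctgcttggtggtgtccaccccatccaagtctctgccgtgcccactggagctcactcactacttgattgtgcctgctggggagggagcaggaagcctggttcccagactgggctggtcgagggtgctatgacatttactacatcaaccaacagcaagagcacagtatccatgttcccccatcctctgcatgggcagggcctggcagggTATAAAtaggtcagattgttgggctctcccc

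S100a8 and S100a4 each carried TATAAA, 30 and 31 bases before the start site, although the first was higher with OMP and the groups of the second overlapped. TATAAA stood in 12.4% of 32851 promoter windows of 250 bases in the same table. In S100a8 a GAGGAA match on the opposite strand directly preceded the TATA box without overlap, and a second lay 170 bases upstream. GAGGAA occurred in 23.3% of all windows. S100a9 had neither of these, and held TTGCTTAA, a match to TTGCNNAA, 236 bases upstream, a motif found in 9.56% of windows. It also held GGGCGG (a GC box, in 32.7% of windows) 223 bases upstream. S100a11 had TGAGTCA 136 and 38 bases upstream, against 6.75% of windows with any TGANTCA, and GGGCGG 64, 52 and 24 bases upstream. The motif CCAAT, on either strand, was found among the members in S100a6 alone, while TTCNNNGAA (the STAT palindrome) was found in none of the 7 members with a promoter in the table. S100a10 had no entry there.

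Library totals recovered from the deposited values ran from 3494986 to 4247619 reads, so a gene of 1 kb with 3 reads had 0.706 to 0.858 RPKM (reads scaled by gene length and by library total). Of these totals 99.8% to 99.9% lay in genes of the table, so they need not equal the number of reads sequenced. The labelled cell type was checked against marker genes. Ptprc (CD45), Cd33, Spi1, Hoxa9 and Meis1 were present in each library, while Mpo (myeloperoxidase) was 12.3 ± 0.648 RPKM in Vehicle and 2.63 ± 0.563 RPKM in OMP. The summed RPKM of erythroid, B cell, T cell, fibroblast and keratinocyte markers stayed at or under 2.65 per list in each library, with Pax5, Cd3e, Krt5 and Krt14 at 0 reads. The T cell list was higher in OMP (0.862 to 2.28) than in Vehicle (0 to 0.452), nearly all from Trac, a T cell receptor segment with 2 reads in Vehicle and 15 in OMP, and its part in the S100 differences was not tested. Over the 11020 genes tested with limma, 1702 rose and 3033 fell at an adjusted p under 0.05. That split moved with the scaling, to 2370 and 2237 with median-of-ratios scaling, 2224 and 2337 with quantile normalization, and 1215 and 3973 with rescaling to TPM.

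S100a9 (ENSMUSG00000056071), the larger calprotectin subunit, was the most abundant member in each library. It stood at 1378, 1376 and 1361 RPKM in Vehicle replicates 1 to 3 and at 5405, 5625 and 5356 RPKM in OMP replicates 1 to 3. The lowest OMP value was far above the highest Vehicle value. The log2 fold change, fitted on log2(RPKM + 0.5), was 1.99 ± 0.03 (standard error, SE), or 3.98-fold. Among all genes S100a9 ranked between 21 and 23 by RPKM in the Vehicle libraries and 5 in each OMP library. The spread between Vehicle replicates, a coefficient of variation of 0.688%, was below the 1.87% that counting error alone gives for its reads in 1 library, so 3 replicates give an uncertain estimate of that spread.

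S100a8 (ENSMUSG00000056054), the smaller calprotectin subunit, followed closely. Its values were 1084, 1145 and 1042 RPKM in Vehicle and 3210, 3063 and 2827 RPKM in OMP, again without overlap. The log2 fold change was 1.47 ± 0.05 SE, or 2.78-fold, and its rank among all genes went from between 26 and 31 to between 8 and 10. S100a9 was the more abundant of the pair in each library, and the gap was wider with OMP. The ratio of S100a9 to S100a8 RPKM was 1.27, 1.20 and 1.31 in Vehicle and 1.68, 1.84 and 1.89 in OMP, with no overlap between groups (1.26 ± 0.0528 and 1.81 ± 0.109, SD, n = 3).

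Both genes together made up a small share of the transcriptome, which was higher in OMP than in Vehicle. Their share of the recovered library total was 0.124%, 0.127% and 0.121% in Vehicle and 0.437%, 0.441% and 0.415% in OMP. The exact 95% binomial intervals, which cover counting error only, ran from 0.118% to 0.131% over the Vehicle libraries and from 0.409% to 0.448% over the OMP libraries. Because both mRNAs are short, at 486 and 519 bases, their share of the summed RPKM was larger, at 0.575 ± 0.0137% in Vehicle and 1.87 ± 0.0475% in OMP. Of the summed RPKM of the 8 members, S100a8 and S100a9 gave 87.0 ± 0.518% in Vehicle and 93.2 ± 0.0657% in OMP. The remaining 6 members together went from 369.3 ± 15.5 to 616.9 ± 17.9 RPKM. RNA was measured in bulk, so a larger share of cells with these mRNAs and more mRNA per cell cannot be told apart.

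**Figure D1:**
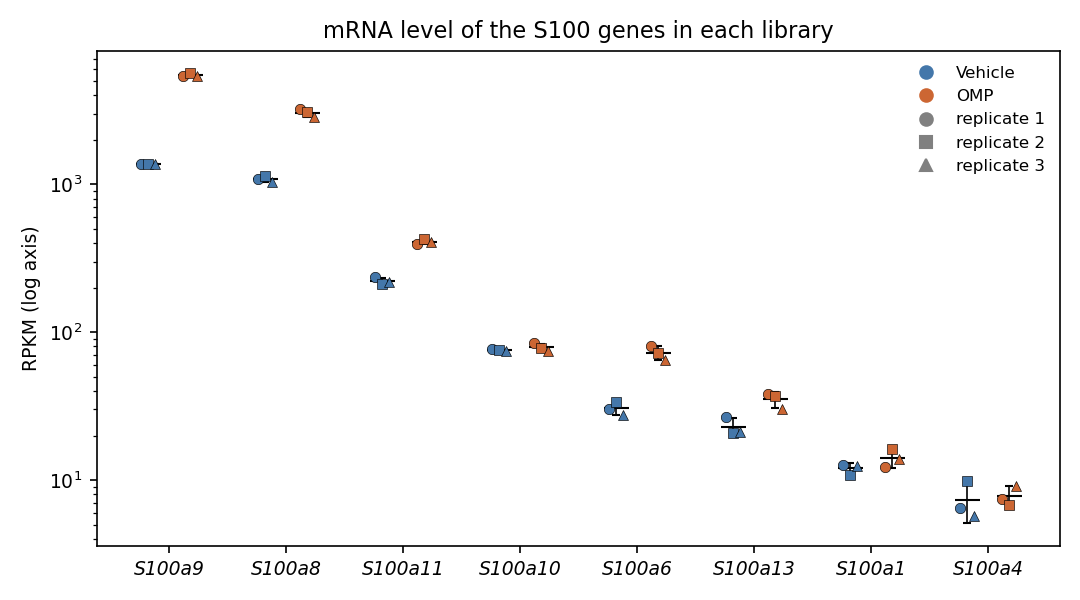
RPKM on a log axis of the 8 S100 genes in each of the 6 libraries, with Vehicle in blue, OMP in orange, marker shape for the replicate number, and black bars for mean ± SD (n = 3). S100a9, S100a8, S100a11, S100a6 and S100a13 are separated between the groups, from 1372 to 5462 RPKM on average for S100a9, while S100a10, S100a1 and S100a4 overlap.

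S100a11 (calgizzarin, ENSMUSG00000027907), which binds annexin A1 and takes part in membrane repair, was the third most abundant member. It measured 234.6, 210.5 and 217.9 RPKM in Vehicle and 395.9, 423.7 and 405.6 RPKM in OMP. The groups did not overlap, and the log2 fold change was 0.89 ± 0.05 SE, or 1.85-fold. S100a10 (p11, ENSMUSG00000041959), which has lost calcium binding and forms a tetramer with annexin A2, behaved differently although its gene lies 28.8 kb from S100a11. It measured 76.5, 76.0 and 74.6 RPKM in Vehicle and 84.0, 78.1 and 75.0 RPKM in OMP (log2 fold change 0.06 ± 0.05 SE). OMP replicate 3 fell inside the Vehicle range. The ratio of S100a11 to S100a10 therefore went from 2.92 ± 0.147 to 5.18 ± 0.406. With median-of-ratios scaling S100a10 passed the threshold at a log2 fold change of 0.15, and with TPM rescaling its sign turned, at -0.02.

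S100a6 (calcyclin, ENSMUSG00000001025), which binds Cacybp and several annexins, stood at 30.4, 33.8 and 27.4 RPKM in Vehicle and 80.6, 72.4 and 64.7 RPKM in OMP. All OMP values were above all Vehicle values, and the log2 fold change was 1.24 ± 0.10 SE, or 2.36-fold, from 269 reads over the Vehicle libraries and 570 over the OMP libraries. S100a13 (ENSMUSG00000042312), which takes part in the release of FGF1 and interleukin 1 alpha, stood at 26.6, 20.9 and 21.1 RPKM in Vehicle and 38.0, 37.0 and 30.1 RPKM in OMP. The groups came close but did not overlap, and the log2 fold change was 0.61 ± 0.12 SE, or 1.52-fold. The S100a13 values rested on 61 to 95 reads per library. Its partners had little mRNA here: Fgf1 had 1 read and Il1a had 3 reads over all libraries.

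S100a1 (ENSMUSG00000044080), best known as a regulator of calcium handling in muscle, was low. It measured 12.6, 10.8 and 12.5 RPKM in Vehicle and 12.3, 16.2 and 13.9 RPKM in OMP, between 29 and 39 reads per library. OMP replicate 1 lay inside the Vehicle range, and the log2 fold change was 0.22 ± 0.11 SE. Without OMP replicate 1 it was 0.32 and passed the threshold, as it did with quantile normalization, also at 0.32. S100a4 (metastasin, ENSMUSG00000001020), which binds the heavy chain of non-muscle myosin IIA, was the lowest member. Its values of 6.45, 9.82 and 5.67 RPKM in Vehicle and 7.47, 6.78 and 9.18 RPKM in OMP rested on 12 to 20 reads per library and were mixed between the groups. The log2 fold change was 0.11 ± 0.19 SE, and it ranged from -0.04 without Vehicle replicate 3 to 0.33 without Vehicle replicate 2. Its level is also less certain than that of the others, because 302 of the 584 exonic bases of S100a4 (51.7%) are also exonic in the readthrough model Gm42674, which had 0 reads in each library. The sources used here do not say how reads in the shared part were counted.

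Of the 8 members, 5 passed the limma threshold upward and 0 downward. Over all genes tested 43.0% passed in either direction, 15.4% upward and 27.5% downward. For 5 members, all higher with OMP, the groups had no overlapping values, which was so for 54.5% of all genes tested, and for 19.9% with OMP as the higher group. All 8 members had at least 1 RPKM in each library, so none entered through 1 group alone. The median log2 fold change was 0.75 over the members and -0.09 over all genes tested. Since the contrast chose the members, these counts describe the list and are no support for it. The order of levels was the same in both groups, from S100a9 through S100a8, S100a11, S100a10, S100a6, S100a13 and S100a1 to S100a4. In Vehicle no neighbours in that order overlapped, whereas in OMP the values of S100a6 reached into those of S100a10.

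All members lie on chromosome 3 in GRCm38, in runs of genes that also hold silent relatives. The first run spans 185 kb, from S100a1 at 90511034 to 90514392 to S100a9 at 90692632 to 90695721, and holds 12 S100 genes of which 6 are members. In genome order S100a1 and S100a13 come first, followed by S100a14, S100a16, S100a3 and S100a2, which had 0, 0, 1 and 1 reads. S100a4 (90603771 to 90606045) is followed by S100a5 with 1 read, and S100a6 (90612882 to 90624181) by S100a7a with 0 reads. S100a8 (90668978 to 90670035) and S100a9 close the run 22.6 kb apart, on opposite strands. Members whose groups differed without overlap thus alternated with genes at 0 or 1 reads and with S100a4. S100a11 (93520488 to 93526287) and S100a10 (93555080 to 93564643) form a second run. The 2825 kb between the runs hold 60 protein-coding genes, largely of the epidermis, of which 6 had any read and 1 was abundant enough to be tested. That gene, Ivl (involucrin, a keratinocyte envelope protein), stood at 1.13 ± 0.234 and 1.77 ± 0.738 RPKM (limma adjusted p = 0.265).

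**Figure D2:**
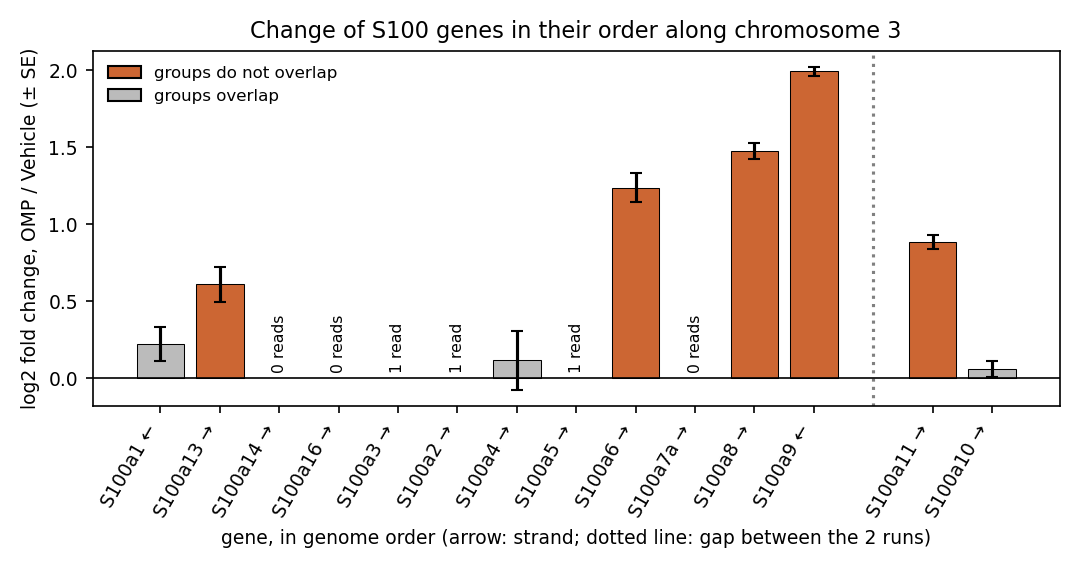
Log2 fold change of OMP over Vehicle (bars, ± SE) for the S100 genes of chromosome 3 in genome order, with arrows for the strand, orange where the 3 OMP and 3 Vehicle values do not overlap, grey where they do, and total reads over 6 libraries for genes that could not be tested. S100a6, S100a8 and S100a9, at 1.24, 1.47 and 1.99, stand near one end of the first run, and S100a10 at 0.06 lies next to S100a11 at 0.89.

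S100a1 and S100a13 are transcribed away from each other, and their annotated ends are 42 bases apart, so any sequence in that gap is upstream of both. It is shown because S100a13 differed without overlap and S100a1 did not, from a common upstream stretch. Both rested on few reads, 61 to 95 per library for S100a13 and 29 to 39 for S100a1. Their log2 fold changes were 0.61 ± 0.12 and 0.22 ± 0.11 SE, and whether the genes of the pair responded differently was not tested.
Gap between S100a1 and S100a13, chr3:90514393-90514434, plus strand: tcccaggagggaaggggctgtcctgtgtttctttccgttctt
The stretch has a GC content of 54.8%, and none of the searched motifs was found in the 250 bases before the RefSeq start site of either gene. The ratio of S100a13 to S100a1 RPKM was 2.10, 1.93 and 1.68 in Vehicle and 3.10, 2.28 and 2.16 in OMP. The groups of this ratio were separated by a narrow margin, with OMP replicate 1 well above the others.

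The members share little sequence that reads could be misplaced by. The longest stretch shared by annotated transcripts of any 2 members, on either strand, was 19 bases, between S100a6 and S100a9, and S100a8 and S100a9 shared at most 11 bases. S100a8 and S100a9 had 2 annotated transcripts each, and the deposited values matched the length of 1 of them in every case, so a shift between isoforms could not be seen.

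The remaining S100 genes were near or at zero. S100a2 had 1 read in Vehicle replicate 1, S100a3 and S100a5 had 1 read each in OMP replicate 3, and S100b, a glial gene on chromosome 10, had 1 read in Vehicle replicate 2 and 1 in OMP replicate 3. S100a7a, S100a14, S100a16, S100g and S100z had 0 reads, and a count of 0 allows up to 3 reads per library. The fused-type S100 genes of the skin barrier, such as Flg (filaggrin) and Hrnr (hornerin), had no reads in 6 of 7 cases, the exception being Tchh. All were under the filter of 1 RPKM in 3 libraries. In the fit without that filter, limma adjusted p-values for S100a2, S100a3, S100a5, S100b and Tchh, the genes with a read, lay between 0.488 and 0.98.

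Of the cell-surface molecules reported to bind S100 proteins outside the cell, 8 of 10 were tested, 6 rose and 0 fell, with a median log2 fold change of 0.32. Over all genes tested, 15.4% rose and 27.5% fell. Tlr4, a receptor of calprotectin, rose 1.57-fold from 14.7 ± 0.434 to 23.4 ± 1.72 RPKM (SD, n = 3, limma adjusted p = 0.000174). Cd14, which presents ligands to Toll-like receptor 4, rose 3.17-fold from 23.6 ± 1.02 to 76.0 ± 2.64 RPKM (limma adjusted p = 2.23e-07). Alcam, an adhesion molecule that can bind S100b, rose from 0.498 ± 0.106 to 3.41 ± 0.329 RPKM, on 36 and 221 reads. All Vehicle values of Alcam were under 1 RPKM, so it passed the filter through the OMP libraries alone and had to differ to be counted among the 6, although it also passed the threshold with no filter. Cd69, an activation marker of leukocytes, rose 1.41-fold. Nptn, named after its values were seen, was 1.10-fold higher and passed only narrowly (limma adjusted p = 0.0489). Ager, which encodes the receptor RAGE, had 2.59 ± 0.216 and 2.44 ± 0.441 RPKM and did not pass (limma adjusted p = 0.750), nor did Ly96, the Toll-like receptor 4 co-receptor MD-2 (limma adjusted p = 0.281), although without OMP replicate 2 it passed as lower (0.0116). Bsg (basigin), a receptor for S100a9, was 1.09-fold higher (limma adjusted p = 0.0305) and lost the call with TPM rescaling, quantile normalization, no filter, and without Vehicle replicate 1 or 3 or OMP replicate 2 or 3. Without OMP replicate 2, and likewise without OMP replicate 3, 3 of these genes rose, and Alcam was then under the filter and not tested.

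Partners inside the cell included several annexins, proteins that bind membranes when calcium rises. Of 22 listed partners 17 were tested, 10 rose and 1 fell, with a median of 0.19, while 15.4% of all genes tested rose and 27.5% fell. Anxa2, which joins S100a10 in a tetramer, rose 1.82-fold from 207.5 ± 4.04 to 377.8 ± 4.84 RPKM (limma adjusted p = 5.86e-07), while the level of S100a10 overlapped between the groups. The ratio of Anxa2 to S100a10 RPKM was 2.73, 2.77 and 2.72 in Vehicle and 4.50, 4.90 and 4.97 in OMP. For S100a11 and Anxa1, the only annexin set against S100a11 here, the opposite was seen. Anxa1 had 32.0 ± 1.98 and 31.4 ± 3.31 RPKM (limma adjusted p = 0.810), and the ratio of S100a11 to Anxa1 went from 6.93 ± 0.556 to 13.1 ± 1.71. Anxa5, a phosphatidylserine-binding annexin, rose 2.18-fold to 154.1 ± 3.42 RPKM. Cacybp, the S100a6 partner calcyclin-binding protein, had 98.2 ± 3.12 and 108.0 ± 9.24 RPKM and did not pass (limma adjusted p = 0.118), although it did with median-of-ratios scaling (0.0232), with voom (0.0319) and without OMP replicate 3 (0.0158). Myh9, the myosin heavy chain that S100a4 binds, rose 1.52-fold to 242.2 ± 4.82 RPKM, and Ppid, a cyclophilin, rose 1.64-fold. Stip1, a co-chaperone named after its values were seen, was the gene that fell, 1.12-fold (limma adjusted p = 0.0369), and it lost the call with no filter, with median-of-ratios scaling, with quantile normalization, and without Vehicle replicate 2 or 3 or OMP replicate 1 or 2. Ahnak, a scaffold bound by S100a10 and Anxa2, was under the filter at 0.114 ± 0.0142 and 0.165 ± 0.0139 RPKM.

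**Figure D3:**
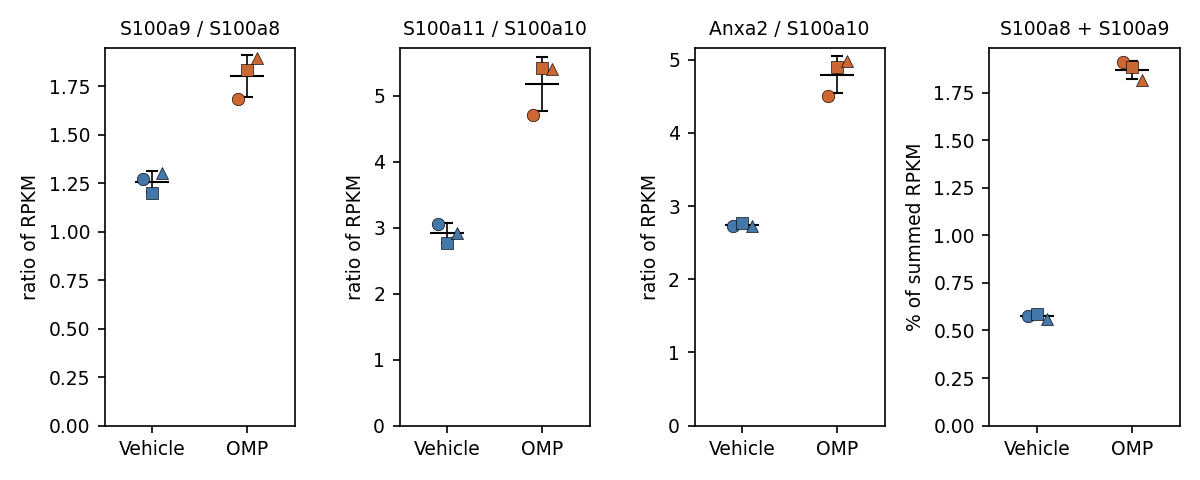
Ratios of RPKM within each library for S100a9 over S100a8, S100a11 over S100a10 and Anxa2 over S100a10, and the percent of summed RPKM from S100a8 and S100a9, with points for libraries (marker shape for the replicate number) and black bars for mean ± SD (n = 3). In each panel the 3 OMP values lie above the 3 Vehicle values, for example 1.68 to 1.89 against 1.20 to 1.31 for S100a9 over S100a8.

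Transcription factors linked to S100a8 and S100a9 mostly moved down. Of 8 tested, 2 rose and 5 fell, with a median of -0.26, beside 15.4% and 27.5% of all genes tested. Cebpa, the C/EBP factor of early granulocyte commitment, fell 1.63-fold from 44.4 ± 1.70 to 27.0 ± 0.940 RPKM (limma adjusted p = 2.70e-05), and Myb, a factor of progenitors, fell 1.34-fold. Cebpe, needed for late granulocyte maturation, was 103.0 ± 2.95 and 89.0 ± 8.77 RPKM (limma adjusted p = 0.0320). That call was lost with median-of-ratios scaling (0.166), with no filter, and without OMP replicate 1 or 3 or any single Vehicle replicate. Stat3 fell 1.23-fold, and Cebpd, named after its values were seen, fell 1.41-fold (limma adjusted p = 0.0223). Cebpd lost the call with no filter (0.0627), with quantile normalization (0.0572), and without Vehicle replicate 1 or OMP replicate 1 or 2. Cebpb, a C/EBP factor of stress-driven granulopoiesis, was 35.7 ± 3.88 and 43.7 ± 5.09 RPKM with overlapping groups (limma adjusted p = 0.0493), and it lost the call with a pseudocount of 0.1, with no filter, with TPM rescaling and without Vehicle replicate 1 or 3 or OMP replicate 1 or 2. Spi1, which encodes PU.1, rose 1.13-fold (limma adjusted p = 0.00347) but not with TPM rescaling (0.0536). Hif1a did not pass (limma adjusted p = 0.195), although it did with TPM rescaling (0.0212). Without Vehicle replicate 1, or without OMP replicate 1, 3 factors fell.

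Other proteins with EF-hands moved in both directions. Of 29 tested, 12 rose and 7 fell, or 4 fell with median-of-ratios scaling, with a median of 0.05. For all genes tested the shares were 15.4% upward and 27.5% downward. Lcp1 (plastin 2), an actin bundler of leukocytes, rose 1.34-fold from 541.1 ± 6.12 RPKM (limma adjusted p = 2.05e-05), and Actn1 (alpha-actinin 1) rose 1.48-fold. Gca (grancalcin), an EF-hand protein of neutrophil granules, fell 1.37-fold from 35.1 ± 0.455 to 25.5 ± 0.568 RPKM (limma adjusted p = 0.000167), and Chp1, a calcineurin-like protein, fell 1.38-fold.

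Genes within 250 kb of either run were examined to see whether the surroundings moved with the members. Of 22 protein-coding genes 8 were tested, all beside the first run, of which 2 rose and 3 fell, with a median of -0.01. All 8 lie before S100a1, at the far end of that run from S100a8 and S100a9. Past S100a9, Pglyrp4 had 1 read over all libraries and Gm5849 had 0. The list therefore cannot show whether genes next to S100a8 and S100a9, or next to the second run, moved with them. The shares over all genes tested were 15.4% upward and 27.5% downward. Chtop, Snapin and Ilf2 lie closest to S100a1. Chtop (47.8 ± 3.42 and 48.5 ± 4.04 RPKM, limma adjusted p = 0.853) and Snapin (24.1 ± 1.34 and 23.5 ± 0.806 RPKM, limma adjusted p = 0.699), both named after their values were seen, did not pass. Ilf2, an RNA-binding protein, fell 1.14-fold from 65.3 ± 1.87 RPKM but not with median-of-ratios scaling (0.104). Gatad2b, a subunit of the NuRD complex, and Crtc2, a CREB coactivator, both fell 1.24-fold, although Crtc2 lost the call with quantile normalization (0.0542). Ints3 and Dennd4b (the latter named after its values were seen) rose 1.16-fold and 1.20-fold. Dennd4b (limma adjusted p = 0.0297) lost the call with no filter (0.0573), with TPM rescaling (0.113), and without Vehicle replicate 1 or 2 or OMP replicate 1 or 3. Ints3 lost the call with TPM rescaling (0.0834) and without Vehicle replicate 2 or OMP replicate 2. Without Vehicle replicate 2 no gene of this list rose. Without Vehicle replicate 1 or any single OMP replicate, 1 gene rose.

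**Figure D4:**
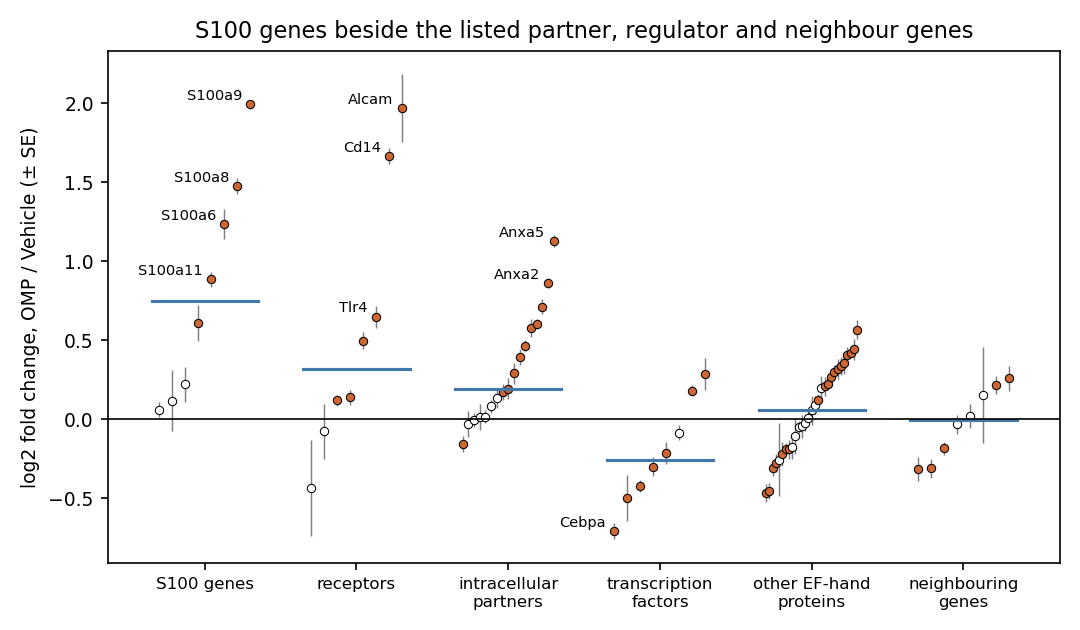
Log2 fold change of OMP over Vehicle (points, ± SE) for the tested genes of the S100 list and 5 other lists, ordered within each list, with orange for genes past the limma threshold, white for the others, and blue lines for list medians. The medians run from 0.75 for the S100 genes to -0.26 for the transcription factors, and S100a9 at 1.99 and Alcam at 1.97 are the highest points, Alcam being a gene that passed the filter through the OMP libraries alone.

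Markers of neutrophil maturation moved with the calprotectin genes. Of 12 such markers, which include Cebpe from the list above, 9 rose and 2 fell, Csf3r (not with quantile normalization, 0.0505) and Cebpe, with a median log2 fold change of 1.58, and none was at 0 reads. Among all genes tested 15.4% rose and 27.5% fell. One of the 9, Ltf (lactoferrin), passed the filter mainly through the OMP libraries, from 0.788 ± 0.277 to 7.70 ± 1.43 RPKM. Their summed level was 397.0 to 409.2 RPKM in the Vehicle libraries and 861.6 to 928.0 RPKM in the OMP libraries. Ngp (neutrophilic granule protein) rose 4.82-fold and Ly6g, the surface marker of mature mouse neutrophils, rose from 2.79 ± 0.693 to 15.7 ± 1.92 RPKM. Retnlg, a secreted resistin-like protein of neutrophils, rose 16.2-fold from 3.50 ± 1.16 RPKM. Cxcr2, a chemokine receptor of mature neutrophils, stood at 1.59 ± 0.383 and 1.56 ± 0.180 RPKM (limma adjusted p = 0.970). The part of these markers in the S100 differences was not tested.

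Other genes had profiles close to those of S100a8 and S100a9 over the 6 libraries. Likeness was the Euclidean distance between log2(RPKM + 0.5) values after subtracting each gene's own mean, among 7842 tested genes with a mean of at least 5 RPKM. With 2 groups of 3 libraries this distance mostly reflects the fold between OMP and Vehicle, the difference by which the family was chosen. Acpp had a log2 fold change of 1.47, as S100a8 did, and Cd80 had 1.98 against 1.99 for S100a9. A close profile is therefore no separate sign of joint regulation. Closest to S100a8 were Acpp (0.186), Cdh17 (0.210), Metrnl (0.223), BC100530 (0.244) and Tlr13 (0.247), where smaller is closer. Acpp, an acid phosphatase, went from 7.83 ± 0.131 to 22.6 ± 0.445 RPKM, and Metrnl, a secreted meteorin-like protein, from 14.3 ± 0.603 to 41.0 ± 1.41 RPKM. Closest to S100a9 were Cd80 (0.170), Stfa1 (0.200), Trib1 (0.236), Slc2a3 (0.279) and Ccl6 (0.281). Cd80, a co-stimulatory ligand, went from 4.72 ± 0.123 to 20.2 ± 1.81 RPKM, and Trib1, a pseudokinase that promotes degradation of C/EBP alpha protein, from 5.30 ± 0.563 to 20.8 ± 0.620 RPKM. Stfa1 and BC100530 belong to the stefin A cluster of near-identical genes, so how their reads were divided between them is uncertain. They were the only genes on either list with levels like those of calprotectin, from 2334 ± 51.9 to 8359 ± 389.4 RPKM for Stfa1 and from 2315 ± 51.2 to 7169 ± 241.6 RPKM for BC100530.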

How the data were processed

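The deposited table holds RPKM values made by the authors, 1 column per library, for poly(A)-selected TruSeq RNA libraries. Per the submitters' processing notes, STAR 2.5.3a, featureCounts 1.6.3, Trimmomatic 0.36 and FastQC 0.11.5 were used, on mm10 (GRCm38). The sources used here give no annotation release, strand setting or read filter, which leaves overlapping and antisense genes inseparable. Reads and library totals were recovered from the steps of the RPKM values (100% of 19970 genes above 0 came out as whole reads within 1e-06, relative, and 94.6% of the lengths equalled an annotated transcript of GENCODE M21). Counting intervals treat reads as independent molecules.

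Genes with at least 1 RPKM in at least 3 of 6 libraries were fitted with limma 3.58.1 (R 4.3.3) on log2(RPKM + 0.5), with a mean-variance trend, no covariates and Benjamini-Hochberg adjustment over all genes tested (threshold 0.05). Folds come from this scale and understate changes of low genes. The procedure was run on simulated data in which few genes changed, with rises and falls drawn alike. That run does not bear on the choice of scaling, and its outcome is not reported here. Where 2 rows shared a symbol, the one with more reads was used. Same-group libraries differed by more than sampling noise (chi-square per degree of freedom 1.18 to 1.57). The members and gene lists were chosen with earlier results of these data known. Named genes were the 8 members, other S100 genes with a read, 13 genes fixed by name (1 of which is not reported here), up to 4 called genes with the smallest p per list, and the 5 genes closest to S100a8 and to S100a9. Further genes from the lists, such as Ly96, Fgf1, Il1a, Hif1a, Mpo, Trac and the neutrophil markers, were named after their values were seen. Alternatives covered the pseudocount, the filter, the scaling, voom on recovered reads (5333 genes called), a robust prior, a replicate block and single libraries left out. Figures used matplotlib 3.10.9 in Python 3.11.15.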

Additional observations from a re-analysis of the deposited data

How the results depend on the processing

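The 5 S100 genes past the threshold stayed past it under all 16 alternatives, with log2 fold changes of 1.47 to 2.08 for S100a9, 1.13 to 1.56 for S100a8, 1.16 to 1.33 for S100a6, 0.80 to 0.98 for S100a11 and 0.53 to 0.72 for S100a13. The alternatives refit the same 6 libraries, and the contrast chose the members, so this describes the list and is no support for it. The lowest values of S100a9 and S100a8 came from quantile normalization. With S100a1 or S100a10 added, 6 members passed with quantile normalization, with median-of-ratios scaling and without OMP replicate 1. Over all genes tested 2224, 2370 and 1441 rose in these settings, in that order, against 1702 in the main fit. Tested were 10817 genes without OMP replicate 1 and 11020 in the others. For the counts that follow, the cause of each shift was not tested, apart from Alcam among the receptors, which the filter removes. Partners that fell numbered 1, and 0 with no filter, with median-of-ratios scaling and with quantile normalization (0 to 1 with single replicates left out). Transcription factors that rose numbered 2, but 1 with a pseudocount of 0.1 and with no filter and 0 with TPM rescaling (1 to 2 with replicates left out), and those that fell numbered 5, but 3 with no filter (3 to 4). EF-hand genes that fell numbered 7, and 4 with median-of-ratios scaling (5 to 6 with replicates left out). Neighbouring genes that rose numbered 2, but 1 with no filter and 0 with TPM rescaling (0 to 2). Receptors that rose numbered 6, but 4 with no filter and with TPM rescaling. They numbered 5 with a filter at 5 RPKM, with quantile normalization, with a robust prior and with the replicate block. With single replicates left out, 3 to 5 receptors rose and 0 to 1 fell. With any OMP library left out, Alcam was under the filter and could not be counted. The labels do not say that replicate numbers pair the libraries. Vehicle and OMP libraries of one number had deviations with correlations of -0.00244, 0.0155 and 0.00694, and those of different numbers -0.0757 to 0.0683. Values this small cannot tell whether cultures or batches were shared, because counting noise also enters the deviations. With the replicate block 4445 genes were called over the table, against 4735 without it, and the number of S100 genes called upward was 5 in both. Depth limits S100a1 and S100a4, for which counting error alone is 17.1% to 26.7% in a library of average depth. It also bears on S100a13, at 10.6% to 12.4%, whose closest values between the groups were 26.6 and 30.1 RPKM.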

Other observations

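S100pbp, a gene on chromosome 4 for a nuclear protein that binds an S100 protein in human cells, is no S100 gene and was named after its values were seen. It stood at 11.2, 10.3 and 10.9 RPKM in Vehicle and at 6.53, 5.92 and 5.41 RPKM in OMP, and fell 1.76-fold (log2 fold change -0.81 ± 0.09 SE, limma adjusted p = 0.000269). All OMP values of S100pbp lay below all Vehicle values. Over all genes tested 27.5% fell, and 54.5% had groups without overlap in either direction.

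The summed RPKM over all genes was 428360 ± 719.5 in Vehicle and 454256 ± 5844 in OMP. S100a8 and S100a9, as 2 short and abundant mRNAs, rose together by an amount equal to 23.3% of that rise. The rise is a net of genes that rose and genes that fell, so this is no share of a whole. Other genes had changes of like size, such as Stfa1, from 2334 to 8359 RPKM.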
